A study of Mus musculus with 31 samples.

Results

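A set of 10 genes that mark the macrophages of the embryonic eye were followed through all 4 groups of a study of *Ftx*, an X-linked gene for a long non-coding RNA: *Csf1r*, *Aif1*, *Lyz2*, *Ctss*, *Cx3cr1*, *C1qa*, *C1qb*, *C1qc*, *Mrc1* and *Tyrobp*. They were chosen by name, as every non-control probe that the array files assign to 1 of these 10 genes, which gave 13 of the 55681 different probes, which carry 34832 gene names. *Csf1r* has 3 probes, *Cx3cr1* has 2 and each of the other genes has 1. RNA was measured on 1-colour (Cy3) Agilent arrays from mouse eyes of embryonic day 13.5 (E13.5) with a normal appearance (type 1), and the pigmented epithelial layer had been taken off by surgery. The groups were WT female eyes (3, numbered 1, 2 and 4), WT male eyes (3), *Ftx*-/Y male eyes (3) and *Ftx*-/- female eyes (11), with 1 array for each eye of the first 3 groups and 2 arrays for each *Ftx*-/- eye, 31 arrays in all. All mice were C57BL/6N, and the mutants carry a conventional deletion of *Ftx*. The labels do not say whether any of the eyes came from the same embryo, so p-values measure only the spread between these eyes.

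Macrophages reach the eye with its first vessels, settle along the hyaloid vessels between lens and retina and in the retina itself as microglia, and clear dying cells and, later, vessels that regress. They live on signals through the receptor *Csf1r*, sense the neuronal chemokine *Cx3cl1* through *Cx3cr1*, tag debris with the complement protein C1q and digest it in lysosomes. In a whole eye they are a small part of the tissue, and fewer macrophages and less RNA per macrophage cannot be told apart in such bulk RNA.

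C1q is built from the products of *C1qa*, *C1qb* and *C1qc*, 3 neighbouring genes of chromosome 4, and *Tyrobp* codes for the adaptor DAP12 that carries the signal of several macrophage receptors. The probes of *C1qa*, *C1qb*, *Tyrobp* and *Lyz2* are shown as the sequences that were read, since the first 3 gave the tightest shared pattern of all members and the fourth was too near background to test. Each is 60 bases long, runs 5′ to 3′ and has at least 1 reading frame without a stop codon. By the positions in the files (mm9), the *C1qa* probe lies at chr4:136452409-136452468, the *C1qb* probe at chr4:136436578-136436637 and the *Lyz2* probe at chr10:116719175-116719234, all on the minus strand, and the *Tyrobp* probe between chr7:31200651-31202378 on the plus strand, a stretch longer than the probe.
C1qa probe: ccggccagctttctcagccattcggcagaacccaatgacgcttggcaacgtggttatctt
C1qb probe: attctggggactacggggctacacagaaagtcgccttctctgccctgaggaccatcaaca
Tyrobp probe: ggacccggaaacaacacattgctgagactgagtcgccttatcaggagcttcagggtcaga
Lyz2 probe: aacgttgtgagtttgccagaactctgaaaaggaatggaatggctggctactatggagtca

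Promoters of the members were looked at as well. Promoters from RefSeq (GRCm38.p6) were taken for 7 of the 10 genes, *Aif1*, *Lyz2*, *Ctss*, *Cx3cr1*, *C1qb*, *C1qc* and *Mrc1*. *Csf1r*, *C1qa* and *Tyrobp* were left out of the search, which does not mean that RefSeq lacks their promoters. The 250 bases before the start were searched on both strands for GAGGAA, the core bound by the myeloid factor PU.1, which reads TTCCTC on the other strand. It was present in 5 of these 7 promoters and in 23.3% of all 32851 promoters. *Mrc1* had 3 matches, *Aif1*, *Ctss*, *C1qb* and *C1qc* had 1 each, and the windows of *Lyz2* and *Cx3cr1* had none. The windows of *C1qb* (chr4:136886201-136886450) and *C1qc* (chr4:136892915-136893164), both on the minus strand, are printed 5′ to 3′ with the match in capitals, at 30 to 25 bases before the start of *C1qb* and at 193 to 188 bases before that of *C1qc*. A match of letters is a description only.
C1qb promoter: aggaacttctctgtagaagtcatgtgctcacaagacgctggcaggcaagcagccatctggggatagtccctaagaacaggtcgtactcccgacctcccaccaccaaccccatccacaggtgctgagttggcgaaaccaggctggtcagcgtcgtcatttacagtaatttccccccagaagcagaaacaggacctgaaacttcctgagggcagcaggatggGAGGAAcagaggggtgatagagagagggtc
C1qc promoter: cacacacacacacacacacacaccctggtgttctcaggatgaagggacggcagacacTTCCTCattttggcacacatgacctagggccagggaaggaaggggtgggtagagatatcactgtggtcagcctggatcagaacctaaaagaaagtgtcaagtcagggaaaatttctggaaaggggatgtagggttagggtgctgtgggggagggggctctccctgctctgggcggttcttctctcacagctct

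A signal below is the normalized brightness of a probe on a linear scale, and a log2 difference is the mean log2 signal of the first group named minus that of the second. A probe was tested where at least 0.5 of the eyes, averaged over the 4 groups, were well above the local background, which left 29495 probes and 12 of the 13 member probes, and called at a Benjamini-Hochberg adjusted p under 0.05 from limma, a linear model fitted to all 20 eyes at once. Only *Lyz2* was not tested. The eyes held the genes that define them, since *Pax6* and *Cryaa* were well above background on all 31 arrays. The *Ftx* probe A_55_P2175002 averaged 101.2 in the WT females (SD 44.9, n = 3) against 21.8 in the *Ftx*-/- females (SD 11, n = 11), where it was well above background on 9 of 22 arrays. It averaged 106 in the WT males (SD 4.6, n = 3) against 16.5 in the *Ftx*-/Y males (SD 2.9, n = 3), on 0 of 3 arrays well above background. The second *Ftx* probe, A_55_P2175007, averaged 40.5 in WT females and 9.78 in *Ftx*-/- females (well above background on 2 of 3 and 1 of 22 arrays), and 18.9 in WT males and 13.7 in *Ftx*-/Y males, where no array was well above background. Slide 1 held all WT eyes with *Ftx*-/Y eye 1. The rest of the *Ftx*-/Y eyes were on slide 2 together with *Ftx*-/- eyes 1 to 3, while slide 3 held *Ftx*-/- eyes 4 to 7 and slide 4 held eyes 8 to 11, and slide 1 was scanned on another day than the rest. WT and *Ftx*-/- females therefore shared no slide, and only the *Ftx*-/Y males join slides 1 and 2.

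**Figure D1:**
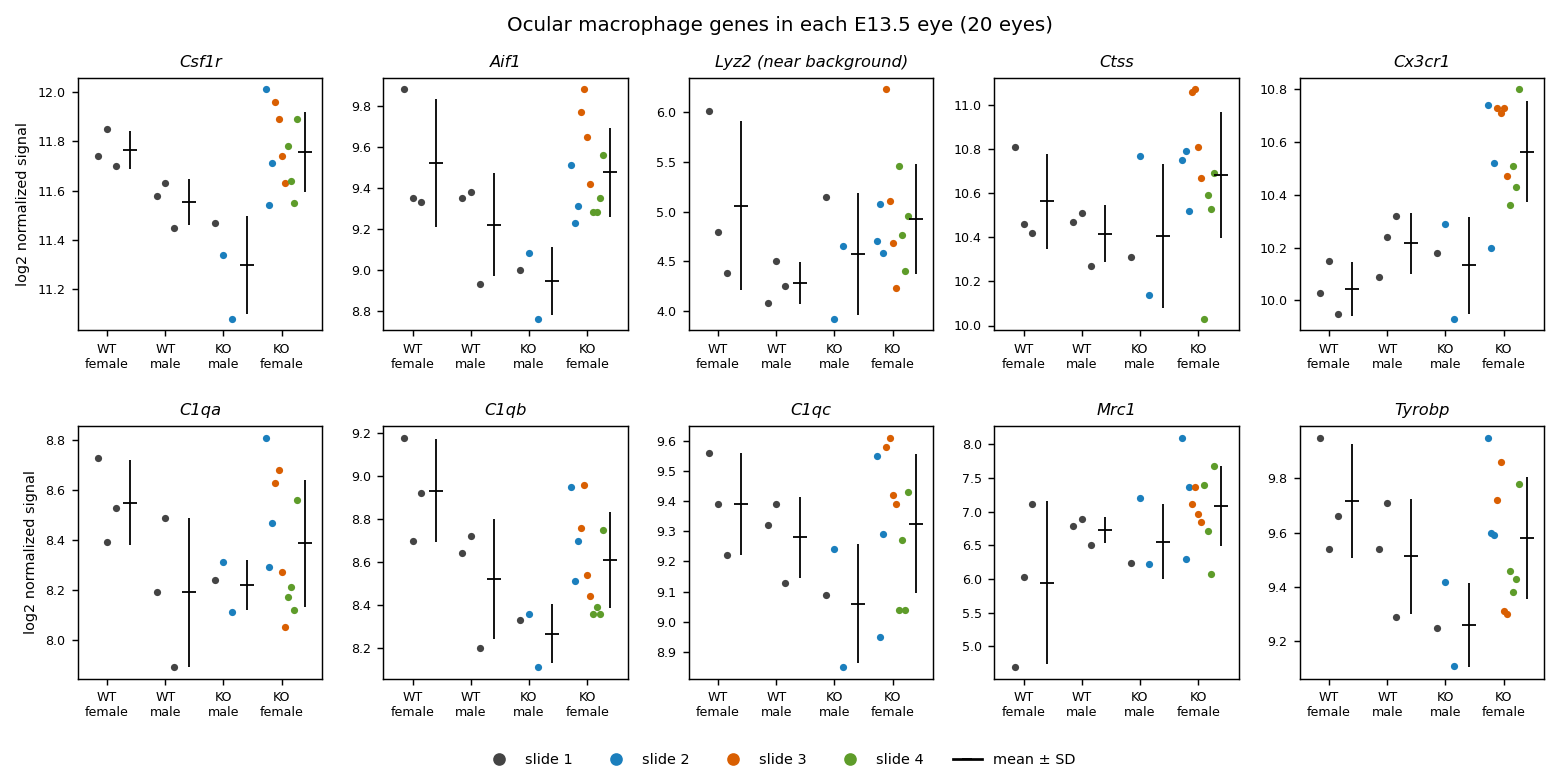
Log2 normalized signal of the 10 macrophage genes (1 probe each, own scale in each panel) in 20 eyes, with 1 point per eye coloured by slide and the mean ± SD of each group beside it. The 11 *Ftx*-/- (KO female) eyes lie above all WT female eyes for *Cx3cr1*, and above all *Ftx*-/Y (KO male) eyes for *Csf1r* and *Aif1*.

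The clearest change among the members was a rise of *Cx3cr1* in *Ftx*-/- females. *Cx3cr1* codes for the fractalkine receptor of microglia and other resident macrophages. Its stronger probe, A_55_P2007964, had signals of 1045, 1140 and 992 in the WT females and of 1178 at the lowest, 1473 at the median and 1779 at the highest in the *Ftx*-/- females. All 11 *Ftx*-/- eyes were above all 3 WT female eyes, a separation in this direction that 8.93% of the tested probes had. The log2 difference was 0.52 (SE 0.110), a 1.43-fold rise with a limma adjusted p of 0.00208, and 29.4% of all tested probes were called in this comparison (15.6% higher). The rise was of similar size with the *Ftx*-/- eyes of slide 2 (0.44, limma adjusted p = 0.0329), slide 3 (0.62, limma adjusted p = 0.000522) or slide 4 alone (0.48, limma adjusted p = 0.0133). Each of these used the same 3 WT female eyes, all on slide 1, so they cannot tell genotype from slide. With the slide as a fixed block the log2 difference was 0.51 and the limma adjusted p was 0.393, since the 3 *Ftx*-/Y eyes alone then link WT and mutant slides.

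Male eyes did not show this rise of *Cx3cr1*. WT males had signals of 1092, 1213 and 1276 and *Ftx*-/Y males of 1162, 1248 and 978, with overlapping groups and a log2 difference of -0.08 (SE 0.138, limma adjusted p = 0.834). The *Ftx*-/- eyes were also higher than the *Ftx*-/Y eyes by 0.43 (SE 0.110, limma adjusted p = 0.0561), which missed the threshold. When the female change was set against the male change, the difference was 0.60 (SE 0.177) with a limma p of 0.00284 and an adjusted p of 0.237, so a difference between the sexes was not called. The weaker *Cx3cr1* probe, A_52_P99810, gave signals of 144, 117 and 173 in the WT females and of 117 to 292 with a median of 170 in the *Ftx*-/- females. Its log2 difference was 0.28 (SE 0.22, limma adjusted p = 0.345), the groups overlapped, and its change in males was 0.43 (SE 0.276, limma adjusted p = 0.526). In *Ftx*-/- against *Ftx*-/Y eyes it gave -0.07 (SE 0.22, limma adjusted p = 0.912), and its female change minus its male change was -0.14 (SE 0.353, limma adjusted p = 0.899), values that were 0.17 and 0.26 with the series table. Against WT females it was called with the *Ftx*-/- eyes of slide 2 alone (0.73, limma adjusted p = 0.0285) and not with those of slide 3 (0.03, limma adjusted p = 0.924) or slide 4 (0.20, limma adjusted p = 0.438).

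The ligand moved the other way in female eyes. *Cx3cl1*, the membrane-bound chemokine of neurons that binds *Cx3cr1*, averaged 1041 ± 165 (SD, n = 3) over WT females and 740 ± 107 (SD, n = 11) over *Ftx*-/- females, and all *Ftx*-/- eyes (588 to 890) were below all WT female eyes (911 to 1226), a separation that 8.37% of the tested probes had in this direction. The log2 difference was -0.49 (SE 0.121, limma adjusted p = 0.00525). Without WT female eye 4 it was -0.37 (limma adjusted p = 0.0506), and with the slide as a fixed block -0.56 (limma adjusted p = 0.31). In males it was -0.11 (SE 0.151, limma adjusted p = 0.793), from 909 ± 62.8 (SD, n = 3) in WT to 841 ± 55.9 (SD, n = 3) in *Ftx*-/Y eyes.

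**Figure D2:**
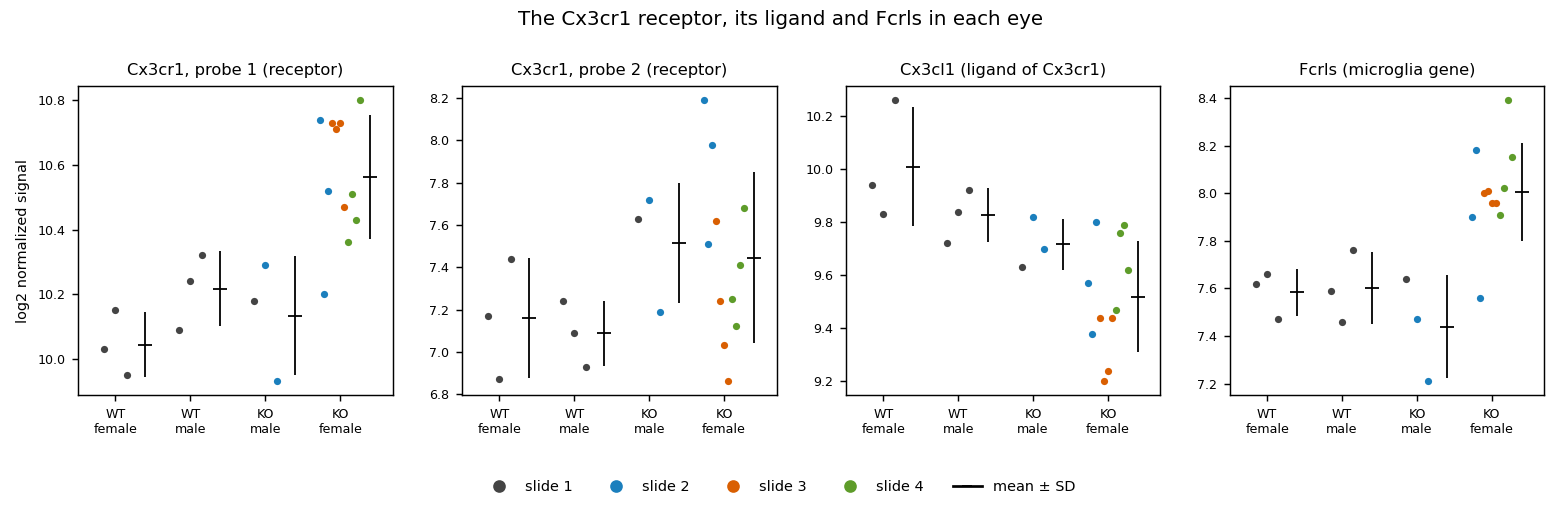
Log2 normalized signal of both *Cx3cr1* probes, of *Cx3cl1* and of *Fcrls* in 20 eyes, with 1 point per eye coloured by slide and the mean ± SD of each group. In *Ftx*-/- (KO female) eyes the first *Cx3cr1* probe lies above and *Cx3cl1* below all WT female eyes, and the second *Cx3cr1* probe overlaps.

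*Csf1r*, the receptor of the growth factors CSF1 and IL34 on which macrophages depend, gave its strongest signal with the probe A_55_P2025078. The signal was 3424, 3682 and 3328 in WT females, 3051, 3167 and 2806 in WT males, 2833, 2590 and 2167 in *Ftx*-/Y males, and 2987 to 4127 with a median of 3413 in *Ftx*-/- females. The WT female eyes lay above all WT male eyes, a separation that 9.66% of the tested probes had in this direction, and the *Ftx*-/Y group had the lowest mean. All *Ftx*-/- eyes were above all *Ftx*-/Y eyes, a separation that 1.41% of the tested probes had in this direction. In *Ftx*-/- against *Ftx*-/Y eyes the log2 difference was 0.46 (SE 0.096, limma adjusted p = 0.0182), a 1.38-fold higher level. This was the only member probe that limma called in that comparison, in which it called 1.45% of all tested probes (0.325% of all tested probes as higher in *Ftx*-/-). The methods' t-test with Benjamini-Hochberg adjustment called the *Aif1* probe there and not this one. The call was lost without *Ftx*-/Y eye 2 (0.48, limma adjusted p = 0.106) or eye 3 (0.35, limma adjusted p = 0.214), and with the slide as a fixed block (0.55, limma adjusted p = 0.161).

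Between *Ftx*-/- and WT females this *Csf1r* probe had a log2 difference of 0.00 (SE 0.096, limma adjusted p = 0.977). In males it was -0.26 (SE 0.12, limma p = 0.0459, adjusted p = 0.373), and WT females were above WT males by 0.21 (SE 0.12, limma adjusted p = 0.526). The other 2 *Csf1r* probes had the opposite sign in males, 0.31 for A_55_P2025073 (SE 0.286, limma adjusted p = 0.678) and 0.35 for A_52_P602091 (SE 0.226, limma adjusted p = 0.529, and -0.08 with the series table). In *Ftx*-/- against *Ftx*-/Y eyes these 2 probes were not called and had the sign of the first, 0.44 for A_55_P2025073 (SE 0.228, limma adjusted p = 0.371) and 0.31 for A_52_P602091 (SE 0.180, limma adjusted p = 0.42). Against WT females they differed from each other. A_55_P2025073 was called higher in *Ftx*-/- than in WT females (log2 difference 0.82, SE 0.228, limma adjusted p = 0.0111). The call was lost without WT female eye 2 (0.67, limma adjusted p = 0.0879), with the *Ftx*-/- eyes of slide 2 alone (0.47, limma adjusted p = 0.0781) and with the slide as a fixed block (0.64, limma adjusted p = 0.35). Its 4 eyes of slide 3 had signals of 528 to 560, the other 7 *Ftx*-/- eyes of 278 to 367, and the WT females of 173 to 244. A_52_P602091 gave -0.15 (SE 0.180, limma adjusted p = 0.57), so a rise of *Csf1r* over WT females was read by 1 of its 3 probes. Between WT females and WT males the differences were 0.80 for A_52_P602091 (SE 0.226, limma adjusted p = 0.178) and -0.08 for A_55_P2025073 (SE 0.286, limma adjusted p = 0.947).

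*Mrc1*, the mannose receptor CD206 of tissue macrophages that take up debris, varied more than any other member. Its signal was 25.9, 65.5 and 139 in the WT females, 111, 119 and 90.9 in the WT males, 75.4, 147 and 75.1 in the *Ftx*-/Y males, and 67.2 to 274 with a median of 139 in the *Ftx*-/- females. The WT females alone spanned a 5.35-fold range, and WT female eye 1 was the lowest of all 20 eyes. The log2 difference between *Ftx*-/- and WT females was 1.13 (SE 0.403, limma adjusted p = 0.0401), with overlapping groups. Without WT female eye 1 it was 0.51 (limma adjusted p = 0.422), without eye 2 it was 1.18 (limma adjusted p = 0.0986), and with 75th percentile normalization it was 0.59 (limma adjusted p = 0.215), so the call was lost without either eye and with that setting. In all, the call was lost in 14 of 25 alternatives, with log2 differences of 0.44 to 1.72. In males the log2 difference was -0.17 (SE 0.505, limma adjusted p = 0.913).

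*Tyrobp* and *Aif1* are read in most macrophages. *Tyrobp* had signals of 988, 743 and 812 in WT females, 743, 840 and 625 in WT males, 611, 684 and 551 in *Ftx*-/Y males, and 630 to 987 with a median of 769 in *Ftx*-/- females. No comparison called it, and its log2 difference was -0.14 (SE 0.134, limma adjusted p = 0.461) in females, -0.25 (SE 0.168, limma adjusted p = 0.538) in males and 0.32 (SE 0.134, limma p = 0.0274, adjusted p = 0.272) between *Ftx*-/- and *Ftx*-/Y eyes. *Aif1*, which codes for the calcium-binding protein IBA1 used to stain microglia, had signals of 944, 650 and 645 in WT females, 651, 666 and 488 in WT males, 512, 540 and 433 in *Ftx*-/Y males, and 602 to 943 with a median of 686 in *Ftx*-/- females. All *Ftx*-/- eyes were above all *Ftx*-/Y eyes (log2 difference 0.53, SE 0.144), a separation that 1.41% of the tested probes had in this direction, and the limma adjusted p of 0.075 missed the threshold. The change of *Aif1* was -0.04 (SE 0.144, limma adjusted p = 0.843) in females and -0.27 (SE 0.181, limma adjusted p = 0.535) in males.

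The 3 genes of C1q gave no call in the fit of all 20 eyes. *C1qa* had signals of 425, 335 and 369 in WT females, 292, 359 and 238 in WT males, 303, 316 and 276 in *Ftx*-/Y males, and 264 to 450 with a median of 314 in *Ftx*-/- females. *C1qb* had signals of 582, 416 and 485 in WT females, 399, 421 and 294 in WT males, 323, 329 and 276 in *Ftx*-/Y males, and 329 to 498 with a median of 372 in *Ftx*-/- females. The groups overlapped for both genes in every comparison of genotypes. *C1qc*, read by 10 spots on each array, had signals of 752, 669 and 597 in WT females, 639, 669 and 560 in WT males, 544, 604 and 462 in *Ftx*-/Y males, and 494 to 779 with a median of 669 in *Ftx*-/- females. Between *Ftx*-/- and WT females the log2 difference was -0.16 (SE 0.152, limma adjusted p = 0.444) for *C1qa*, -0.32 (SE 0.144, limma p = 0.0363, adjusted p = 0.0958) for *C1qb* and -0.07 (SE 0.132, limma adjusted p = 0.739) for *C1qc*. With the *Ftx*-/- eyes of slide 4 alone limma called *C1qb* lower than in WT females (-0.47, adjusted p = 0.0478), and with those of slide 3 alone it called *C1qc* higher than in *Ftx*-/Y eyes (0.44, adjusted p = 0.0128). These settings called 22.8% and 25.4% of all probes in their comparison. The largest sex difference among them was that of *C1qb* in WT eyes, 0.42 higher in females (SE 0.181, limma p = 0.0318, adjusted p = 0.379).

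*C1qa*, *C1qb* and *Tyrobp* rose and fell together from eye to eye. After the group means were taken off, Pearson's r over the 20 eyes was 0.95 between *C1qa* and *C1qb*, 0.94 between *C1qa* and *Tyrobp* and 0.91 between *C1qb* and *Tyrobp*, and the log2 ratio of *C1qb* to *Tyrobp* had an SD of 0.11. *C1qc* followed them less closely, with an r of 0.70 with *C1qa*, 0.76 with *C1qb* and 0.58 with *Tyrobp*. These values share their arrays, and their correlation is a description of 20 eyes.

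*Ctss* and *Lyz2* code for the digestive enzymes cathepsin S and lysozyme. *Ctss* had signals of 1797, 1411 and 1374 in WT females, 1417, 1457 and 1235 in WT males, 1269, 1742 and 1132 in *Ftx*-/Y males, and 1047 to 2157 with a median of 1653 in *Ftx*-/- females. Its groups overlapped throughout, with log2 differences of 0.12 (SE 0.163, limma adjusted p = 0.617) in females and -0.01 (SE 0.204, limma adjusted p = 0.99) in males. *Ftx*-/- eye 8, the lowest for *Ctss*, was above its group mean for *Mrc1*. *Lyz2* was well above background on 16 of 31 arrays, namely 14 of 22 arrays of *Ftx*-/- eyes, 2 of 3 of WT females and none of the 6 arrays of male eyes. Its signals were 64.5, 27.6 and 20.8 in WT females and 18.8 to 74.9 with a median of 27.0 in *Ftx*-/- females. The male eyes read 16.9, 22.7 and 19.0 in WT and 35.5, 15.1 and 25.2 in *Ftx*-/Y, all not well above background, and overlapped with the female eyes of the same genotype, so no fold is given. *Ftx*-/- eye 4, the highest for *Lyz2*, also had the highest summed signal of 10 neutrophil and granulocyte genes (21540 against 451.9 to 7547 in the other *Ftx*-/- eyes). Neutrophils use lysozyme too, and their part in this value was not tested.

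**Figure D3:**
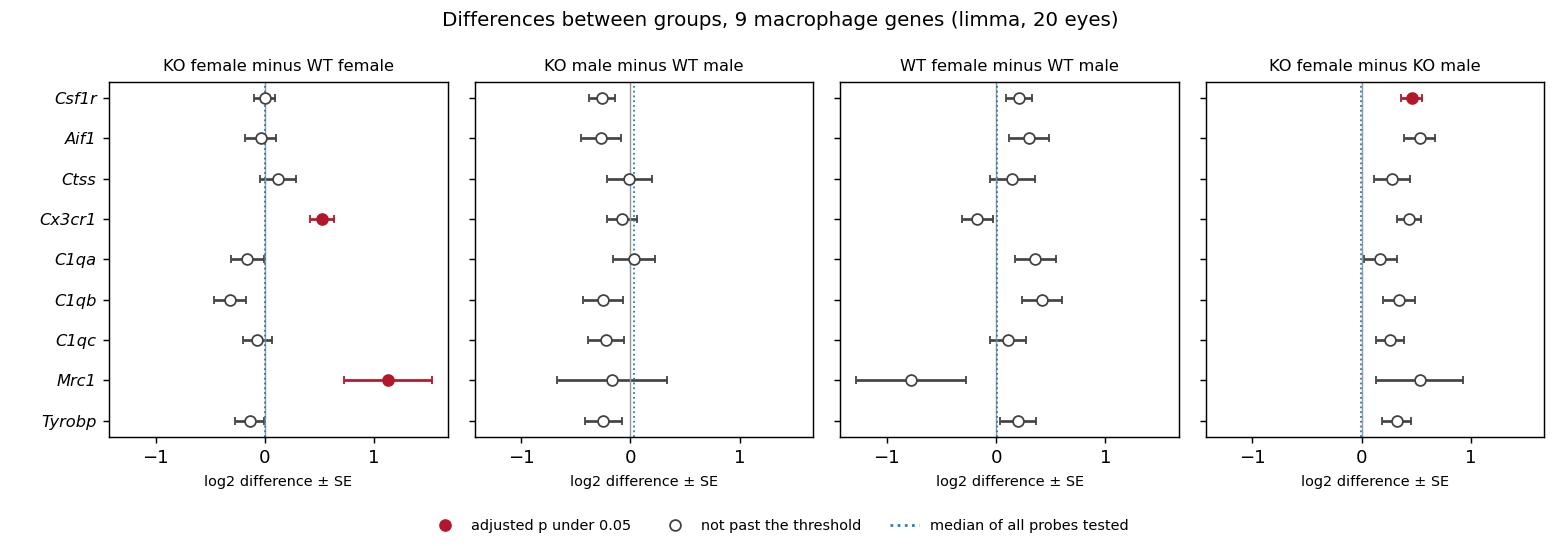
Log2 difference with its SE (limma, 20 eyes) for 9 macrophage genes in 4 comparisons, with filled red points for an adjusted p under 0.05 and a dotted line at the median of all 29495 probes tested. *Cx3cr1* (0.52) and *Mrc1* (1.13) were called in *Ftx*-/- (KO female) against WT females, *Csf1r* (0.46) in *Ftx*-/- against *Ftx*-/Y (KO male) eyes, and none in the other 2 comparisons.

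Taken by comparison, with 1 probe for each of the 9 genes tested, the members did not move as a block in *Ftx*-/- females. *Cx3cr1* and *Mrc1* were called higher and none lower, which is 2 of 9 genes beside 29.4% of all probes called (15.6% higher), and the median log2 difference was -0.04 beside 0.00 over all tested probes. In males 8 of 9 genes were lower in *Ftx*-/Y than in WT eyes (45.2% of all probes were), with a median of -0.22 beside 0.03 over all probes, but limma called 0 member probes and 0 of all probes. The count of 0 over all probes became 694 (2.35%) without WT male eye 3 and 58 (0.197%) with the slide as a fixed block, with 0 member probes in both. Without *Ftx*-/Y eye 3 the median was -0.12 and 6 of 9 genes were lower. At an unadjusted p under 0.05 it gave 1 member probe, *Csf1r*, beside 13.1% of all probes, and the methods' t-test with the same adjustment called 0. On slide 1 alone, *Ftx*-/Y eye 1 differed from the 3 WT male eyes by -0.49 to 0.05 over the same 9 genes. Among other cell types in males, 9 of 11 endothelial genes (median -0.10) and 6 of 6 of pigment epithelium (-0.74) were lower, and 8 of 10 erythroid genes were higher (0.87), with a summed erythroid signal of 304900 to 653400 in *Ftx*-/Y and 206500 to 261600 in WT eyes. Limma called none of these genes, and their part in the members' values was not tested.

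Female eyes read higher than male eyes for most members. In *Ftx*-/- against *Ftx*-/Y eyes 9 of 9 genes were higher, from 0.17 for *C1qa* to 0.53 for *Aif1* and *Mrc1*, with a median of 0.34 beside -0.01 over all probes, of which 48.1% were higher. Of these genes, 5 had an unadjusted p under 0.05 (*Csf1r*, *Aif1*, *Cx3cr1*, *C1qb* and *Tyrobp*), beside 6.17% of all probes in this direction. Within slide 2, which holds 3 *Ftx*-/- and 2 *Ftx*-/Y eyes, the 9 tested genes were higher in *Ftx*-/- eyes, by 0.22 to 0.55. Other cell types were also shifted in this comparison, as 10 of 11 endothelial genes were higher (median 0.34), 8 of 9 of periocular mesenchyme (1.34) and 6 of 6 of pigment epithelium (0.83), and 9 of 10 lens genes were lower (-0.50). Their part in the members' shift was not tested. Between WT females and WT males, all on slide 1, 7 of 9 genes were higher in females with a median of 0.20 beside 0.01 over all probes, of which 51.0% were higher. The median was 0.09 without WT female eye 1 and also without WT male eye 3. *Cx3cr1* (-0.17) and *Mrc1* (-0.78) were the exceptions there (*Mrc1* was -0.16 without WT female eye 1 and -1.37 without eye 4), and limma called 0 member probes beside 0.363% of all probes. At an unadjusted p under 0.05 it gave 2, of *C1qb* and the *Csf1r* probe A_52_P602091, beside 11.6% of all probes, and the methods' t-test with adjustment gave 0. The 2 comparisons of the sexes use different eyes, and no test of their difference other than the interaction was made. The interaction called 0 member probes, and 1, that of *Cx3cr1*, had an unadjusted p under 0.05, beside 4.69% of all probes in this direction.

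Eyes of a group differed in the members together. *Ftx*-/Y eye 3 was the lowest of its group for 9 of 9 tested genes, and WT male eye 3 for 8 of 9. Among the *Ftx*-/- females, eyes 1, 4, 5 and 11 were above the group mean for all 9 genes, and eyes 9 and 10 were below it for all 9. The mean deviation ran from -0.29 in eye 10 to 0.32 in eye 1 on the log2 scale. WT female eye 1 was the highest of its group for 6 genes and the lowest for *Mrc1*. The 2 arrays of an eye differed by a median of 0.05 to 0.12 and at most 0.62 (*Mrc1*) for the 9 probes, and the SD between *Ftx*-/- eyes was 0.16 to 0.59.

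**Figure D4:**
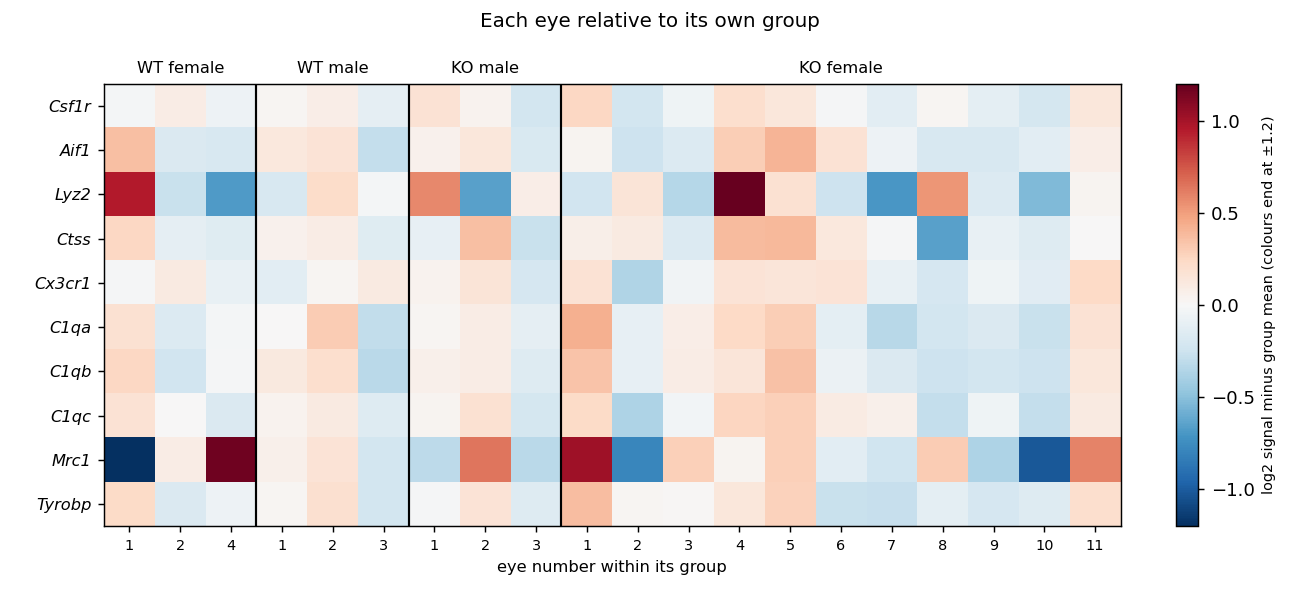
Log2 signal of each eye minus the mean of its own group for the 10 macrophage genes (rows) in 20 eyes (columns, numbered within the group), red above and blue below the group mean. *Ftx*-/- (KO female) eyes 1, 4, 5 and 11 are red and eyes 9 and 10 blue for the 9 tested genes, while *Lyz2*, near background, and *Mrc1* depart from the rest.

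The genes whose deviations were most like the mean of the members, over 20 eyes, were *Rasip1* (r = 0.96), *Ecscr* (0.94) and, each at 0.93, *Cebpd*, *Icam2*, *Ushbp1*, *Rcsd1*, *Cd34* and *Cdc42ep1*. Of all tested probes, 0.407% had an r above 0.8. The mean of the members was taken over unscaled deviations, so *Mrc1*, with the widest spread (SD 0.59 between *Ftx*-/- eyes), weighed most in it. The r of *Mrc1* with each of the other members ran from -0.32 to 0.54, with a median of 0.31. *Rasip1*, *Ecscr*, *Icam2* and *Cd34* are known from the lining of blood vessels. Among the listed genes, the macrophage gene *Fcer1g* and the endothelial gene *Plvap* both reached 0.92 and the endothelial gene *Cdh5* 0.89. The summed signal of 11 endothelial genes was 17720 to 19660 in WT females, 16770 to 20670 in WT males, 16050 to 18480 in *Ftx*-/Y males and 16270 to 26500 in *Ftx*-/- females, and limma called none of the 11 in any comparison. Its part in the members' values was not tested.

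Other macrophage and myeloid genes, 38 in a list written with earlier results known, were read beside the members. A probe existed for 37, and 29 were tested. In *Ftx*-/- against WT females 4 were called higher, beside 15.6% of all probes, and 0 lower, with a median log2 difference of 0.18. *Dab2*, an endocytic adaptor, rose by 1.23 (SE 0.305, limma adjusted p = 0.00588) and *Gpr34*, a lipid receptor of microglia, by 0.77 (SE 0.208, limma adjusted p = 0.00975). *Fcrls*, another microglial gene, was called in 2 comparisons, by 0.42 against WT females (SE 0.129, limma adjusted p = 0.0206) and by 0.56 against *Ftx*-/Y males (SE 0.129, limma adjusted p = 0.0328). The Fc receptor gene *Fcgr1* was the only other one called against *Ftx*-/Y males (0.80, SE 0.191, limma adjusted p = 0.0406), beside 1.45% of all probes called there (0.325% higher). Against *Ftx*-/Y males 22 of 29 were higher, beside 48.1% of all probes, with a median of 0.35. In males 0 were called, and the median was -0.04. The call was lost for *Dab2* without WT female eye 1 (0.99, limma adjusted p = 0.0677), for *Gpr34* without eye 2 (0.62, limma adjusted p = 0.0805), and for *Fcrls* against WT females without eye 1 (0.44, limma adjusted p = 0.0647) or eye 4 (0.36, limma adjusted p = 0.0876). Without any 1 of the *Ftx*-/Y eyes, *Fcrls* (0.45 to 0.66) and *Fcgr1* (0.58 to 0.95) lost theirs against *Ftx*-/Y males, and *Fcgr1* did so without WT female eye 2 (0.80, limma adjusted p = 0.0511). With the slide as a fixed block the adjusted p of each of these named genes was above 0.05.

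Signals that feed and attract macrophages were a list of 11 genes, of which 5 were tested. In *Ftx*-/- against WT females 2 were called higher and 1 lower, beside 29.4% of all probes called (15.6% higher). *Csf1*, a ligand of *Csf1r*, was called higher in *Ftx*-/- than in WT females (0.24, SE 0.085, limma adjusted p = 0.0365), with overlapping signals of 439 to 547 and 474 to 640, a call that was lost without WT female eye 1 (0.17, limma adjusted p = 0.244) or eye 2 (0.23, limma adjusted p = 0.124). *Cxcl12*, a chemokine of stroma, was also higher (1.83, SE 0.532, limma adjusted p = 0.0147; 1.65 and 0.0885 without WT female eye 1), *Cx3cl1* was lower as given above, and *Tgfb1* (-0.03) and *Tgfb2* (-0.01) were not called. *Il34*, the other ligand of *Csf1r*, was well above background in 10 of 20 eyes and was not tested. Its signal was 39.3 to 58.8 in the WT females and 14.9 to 32.8 in the *Ftx*-/- females. The genes *Ccl2*, *Ccl3*, *Ccl4*, *Ccl7* and *Csf2* were not tested either. Between WT and *Ftx*-/Y males none of the 5 was called.

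Complement, phagocytosis and lysosome genes did not share a direction in *Ftx*-/- females. The counts below stand beside 29.4% of all probes called in this comparison (15.6% higher). Of 9 tested genes of the complement cascade and its regulators, 1 was called, *Serping1*, the inhibitor of C1 proteases (-0.44, SE 0.135, limma adjusted p = 0.0191). Of 12 tested phagocytosis receptors and bridges, *Tyro3* was called higher (0.34, SE 0.061, limma adjusted p = 0.000685) and *Gas6*, its ligand (-0.38), *Mfge8* (-0.25) and *Itgb5* (-0.40) lower, with limma adjusted p-values of 0.0135, 0.0177 and 0.00189. Of 10 tested lysosomal proteases and inhibitors, *Ctsk* (2.78, SE 0.662) and *Ctsl* (0.28, SE 0.075) were called higher and *Ctsd* (-0.47, SE 0.093) and *Ctsf* (-0.43, SE 0.077) lower, with limma adjusted p-values of 0.00451, 0.00808, 0.00124 and 0.000595. With 1 WT female eye left out the calls of *Serping1*, *Gas6*, *Mfge8*, *Ctsk* and *Ctsl* were lost, with limma adjusted p-values of 0.0546 and 0.0982 (*Serping1*, without eye 1 or 2), 0.113 (*Gas6*, eye 4), 0.165 and 0.063 (*Mfge8*, eye 1 or 4), 0.0701 (*Ctsk*, eye 1) and 0.0572 (*Ctsl*, eye 1). With the slide as a fixed block, limma called none of the genes named here (adjusted p = 0.264 to 0.86), and with the series table *Ctsd* (-0.19), *Ctsf* (-0.16) and *Itgb5* (-0.11) lost their calls too. In males none of the 3 lists held a called gene.

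Markers of other cells were read between the female groups too, where 29.4% of all probes were called (15.6% higher). Of the tested genes of periocular mesenchyme 7 of 9 were called higher in *Ftx*-/- than in WT females, and their summed signal was 4074 to 5918 in WT females and 6208 to 51950 in *Ftx*-/- females. *Col1a1*, *Col3a1*, *Foxc1*, *Lum*, *Dcn* and *Prrx1* were among the genes called. Of 10 lens genes 8 were called lower, with a summed signal of 1197000 to 1321000 in WT and 917800 to 1245000 in *Ftx*-/- females. Pigment epithelium had 1 of 6 called higher, *Mitf* (summed signal 5176 to 7558 against 3336 to 33970, *Rpe65* never well above background), erythroid genes 3 of 10 higher (233100 to 266300 against 211300 to 382600), and neural retina 3 higher and 1 lower of 10 (179800 to 196000 against 171000 to 202900). Of the white blood cell lists, neutrophil and granulocyte genes had 0 of 6 called (449.3 to 1572 against 451.9 to 21540), lymphocyte genes 1 of 3, *Cd3e*, lower (1783 to 2310 against 709.2 to 1567, *Il7r* never well above background), and mast cell genes 1 of 1, *Tpsb2*, higher (330.5 to 588.4 against 723.5 to 1267, *Ms4a2* never well above background). The summed signal of the 10 macrophage genes was 8761 to 10050 in WT females, 7631 to 8933 in WT males, 6375 to 8215 in *Ftx*-/Y males and 8416 to 11390 in *Ftx*-/- females. The part of these other cells in the differences of *Cx3cr1*, *Mrc1* and the listed macrophage genes was not tested.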

How the data were processed

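Spot intensities of 31 arrays were deposited by the authors as read by Agilent Feature Extraction (11.0.1.1 per the file headers), with the background subtracted and no normalization between arrays. The deposited values of the whole series are the same intensities in rounded form, unnormalized, and served as an alternative. Of 62976 spots per array, 3671 controls were left out, as were, over all arrays, 120 non-uniform spots and 5639 apart from their copies. Intensities were normalized with the quantile-spline method named in the paper (100 samples, 5 iterations), written in R 4.3.3. Log2 values were averaged over the spots of a probe and then over both arrays of an *Ftx*-/- eye. limma 3.58.1 (eBayes with a trend, 16 residual degrees of freedom) compared the groups without covariates, with Benjamini-Hochberg adjustment over 29495 probes, 33 of them with a missing eye. Files were read with fread (version 1.17.8).

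Where a gene has several probes, the one well above background in the most eyes, then with the higher mean, speaks for it. From the lists, genes past the adjusted threshold were named, at most 3 in each direction per list and comparison, with markers that define other cell types, *Ftx*, and the 8 genes most alike in deviation. Listed genes that were not called, such as *Il34* and *Tgfb1*, were named after their values were seen. Some listed genes are counted but not reported here by name. Members and lists were chosen with earlier results of these data known. Precision is limited by how many eyes each group has. The fit was tested on simulated data. Alternatives were other normalizations, filters and call rules, single arrays, single groups, slides and replicate numbers as blocks, each WT and *Ftx*-/Y eye left out, the methods' t-test and, added after the data were seen, *Ftx*-/- eyes of 1 slide and all of these settings for the listed genes.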

Additional observations from a re-analysis of the deposited data

How the results depend on the processing

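The number of member probes called in *Ftx*-/- against WT females, 3 in all, was 1 when only probes with a WT female mean over 500 were kept (fewer probes tested), 0 with the slide as a fixed block, 4 by limma (31.8% of all probes) and 2 by the methods' t-test (24.0%) at the limits of the paper, and 2 with the 75th percentile, normexp, the series table, no filter on dim probes, array 2 of each *Ftx*-/- eye, the random slide block, the replicate block, the groups alone or the *Ftx*-/- eyes of slide 2 or slide 3, and 1 to 3 with 1 eye left out, 1 without WT female eye 2. With the *Ftx*-/- eyes of slide 4 it was 3 too, but with *C1qb* in place of *Mrc1*. In males the count of 0 became 1 by the methods' t-test at the fold and p limits of the paper, the *Csf1r* probe A_52_P602091, higher in *Ftx*-/Y eyes (5.79% of all probes). In WT females against WT males it became 2 by limma at those limits (8.69%). Between *Ftx*-/- and *Ftx*-/Y eyes the count of 1 was 2 with 75th percentile normalization, the mean above 500 or array 2 of each *Ftx*-/- eye, 0 with the series table, the fixed slide block, the replicate block, the groups alone or the *Ftx*-/- eyes of slide 2 or of slide 4, 6 with those of slide 3 (25.4% of all probes called, against 1.45%), 5 by limma (9.72%) and 7 by the methods' t-test (11.9%) at the limits of the paper, and 0 to 1 with 1 eye left out, 0 without *Ftx*-/Y eye 2 or eye 3. The interaction went from 0 to 2 with *Ftx*-/- eyes of slide 3 alone (11.8% of all probes) and to 1 at the limits of the paper (10.3%). Replicate numbers did not pair the eyes, since deviations of same-numbered eyes had correlations of -0.37 to 0.30 over the tested probes. The cause of these shifts was not tested beyond the number of probes or eyes. Over all probes, the share called in females was 29.4%, 0.153% with the fixed slide block, 13.8% with the slide as a random block, 12.8% with the series table, 15% without WT female eye 1 and 18.7% without eye 2.

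*Cx3cr1* in females ran from 0.43 to 0.80 over 26 alternatives and passed the threshold in all but the fixed slide block. With the series table the median of all probes was 0.15 in females, -0.14 in males, -0.13 between WT sexes, 0.20 between mutant sexes and 0.33 for the interaction. Of the 1092 alternative values of member genes, 37 changed sign, all of them in values that no setting called. Signs were compared on rounded values, so *Csf1r* in females, which rounded to 0, could not count. It ran from -0.05 to 0.28 there. In females, *Aif1* became 0.01 with normexp or the replicate block, 0.22 with the series table and 0.16 on slide 3, *C1qa* 0.07 with the series table, 0.01 with the fixed slide block and 0.06 with the replicate block, *C1qc* 0.18 with the series table and 0.11 on slide 3, *Ctss* -0.03 with the fixed slide block and -0.11 on slide 4, and *Tyrobp* 0.13 with the series table and 0.05 with the replicate block. With 1 eye left out *Aif1* ran from -0.14 to 0.14 and *C1qc* from -0.15 to 0.02. In males, *C1qa* became -0.03 with the 75th percentile and -0.14 with the series table and ran from -0.12 to 0.18 with 1 eye left out, *Ctss* became 0.04 with the 75th percentile and ran from -0.19 to 0.12, and *Cx3cr1* ran from -0.16 to 0.02. Between WT sexes the series table gave -0.07 for *C1qc* and -0.03 for *Ctss*. For the interaction, *C1qa* became 0.21 with the series table and 0.03 with the replicate block, *C1qb* 0.32, 0.07, 0.10 and 0.03 with the series table, the fixed slide block, the replicate block and slide 2, running from -0.19 to 0.08 with 1 eye left out, and *Ctss* -0.10 on slide 4, running from -0.01 to 0.31. The difference between *Ftx*-/- and *Ftx*-/Y eyes stayed positive for the 9 genes in all 231 alternative values. Of the 460 alternative values of listed genes, 92 lost the call and 0 changed sign.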
